A study of Mus musculus with 8 samples.

Results

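The genes of the cytosolic ribosomal proteins, the protein parts of the particle that makes all cytosolic protein, were followed in lung endothelial cells with and without a subunit of mitochondrial complex III. Members were the protein-coding genes whose symbols are Rpl or Rps with a number and at most a paralogue or isoform suffix, together with Rpsa, Rplp0, Rplp1 and Rplp2. This gave 83 of the 43430 gene identifiers in the count table, 32 of the small 40S subunit and 51 of the large 60S subunit, spread over 19 chromosomes. Fau, Rack1 and Rpl36al also encode ribosomal proteins or a close copy, but their symbols fall outside this rule and they were kept as a separate list. Pseudogenes were left out.

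The libraries came from C57BL/6 mice at postnatal day 15, and both groups carry the same note of tamoxifen given from postnatal day 0 to day 4, which switches on the deletion. In the knockout (KO) the complex III subunit QPC, taken here as the product of Uqcrq, is deleted in endothelial cells, and the wild type (WT) keeps it. Cells were sorted from lungs for the endothelial surface protein CD31, with 4 libraries in each group. The transgene that drives the deletion, the floxed allele, and whether a library held 1 animal or a pool are not given in the sources at hand. The p-values therefore stand against a spread between libraries that may be technical.

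A ribosome holds 1 copy of most of these proteins, so their genes are usually transcribed at similar, high rates. Many of the messages begin with a C followed by a run of C and T, the terminal oligopyrimidine (TOP) tract, through which the kinase complex mTORC1 and the RNA-binding protein LARP1 control how much of the message is translated and how long it lasts. Other elements shared by their promoters are binding sequences of ETS family factors and of YY1. A few members have a paralogue, a second gene for nearly the same protein, that is used in particular tissues or at low level elsewhere. Free ribosomal proteins, Rpl5 and Rpl11 above all, can bind MDM2 and so stabilise p53 when ribosome assembly is disturbed.

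The start sites show how far the family shares its sequence. Of the 83 members 63 had a promoter in the RefSeq table for GRCm38.p6, each running from 250 bases before to 50 bases after the start. A start at C followed by enough C or T to make a run of at least 5 bases was found in 12 of these 63 (19.0%), against 2.49% of all 27025 promoters. The windows below run from 30 bases before the start to the first 20 transcribed bases, 5′ to 3′. The first 6 are shown because they have the longest such tracts, printed in capitals. In the next 3, of members high in the order of fold change, the capital is the first transcribed base.
Rpl15, minus strand, chr14:18270967-18271016: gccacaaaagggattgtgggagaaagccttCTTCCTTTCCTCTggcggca
Rpl35, minus strand, chr2:39005112-39005161: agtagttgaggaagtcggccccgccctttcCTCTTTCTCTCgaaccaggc
Rps10, minus strand, chr17:27635225-27635274: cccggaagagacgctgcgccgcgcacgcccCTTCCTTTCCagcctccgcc
Rps6, minus strand, chr4:86857348-86857397: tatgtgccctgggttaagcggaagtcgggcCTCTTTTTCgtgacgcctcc
Rps18, minus strand, chr17:33955646-33955695: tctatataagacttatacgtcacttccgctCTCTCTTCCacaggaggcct
Rpl28, plus strand, chr7:4792935-4792984: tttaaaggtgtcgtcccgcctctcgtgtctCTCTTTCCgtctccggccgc
Rps2, plus strand, chr17:24720033-24720082: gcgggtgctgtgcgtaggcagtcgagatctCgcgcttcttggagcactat
Rpl12, plus strand, chr2:32961682-32961731: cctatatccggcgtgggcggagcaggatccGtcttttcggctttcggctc
Rpl24, plus strand, chr16:55966245-55966294: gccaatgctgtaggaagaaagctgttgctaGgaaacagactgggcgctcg
The annotated start of Rps2 has a C with no run behind it, and Rpl12 and Rpl24 start at G with pyrimidines close by in Rpl12. An annotated start can lie some bases from the start used in these cells, so the count of tracts is one of annotated starts. Over the 300-base promoters, on both strands, CCGGAAG (an ETS family sequence) was in 39.7% of members and 9.12% of all promoters, GGGCGG (bound by SP1) in 60.3% and 35.9%, and the pyrimidine-rich CTTTCC in 47.6% and 26.3%. TATAAA was in 9.52% and 14.2%, and CACGTG, the E-box bound by MYC, in 7.94% and 7.24%. Matches of different motifs may share bases, and such overlaps were counted for each. The letters are a description of these windows and not of binding.

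Nearly the whole family stood higher in the KO cells. Of the 83 members 80 had enough reads to be tested. Of these, 62 rose in KO (quasi-likelihood F test of edgeR, Benjamini-Hochberg adjusted p under 0.05 over all 12689 genes), where 2.25% of all genes tested were called higher, and 0 fell, where 1.39% of all genes were called lower; no member was lower by DESeq2 or limma voom either, or at an unadjusted edgeR p under 0.05. The median log2 fold change was 0.66, or 1.58-fold, with a range from 0.38 for Rpl21 to 1.36 for Rps2, while the median over all genes tested was 0.01. All 80 values were above 0, as were 51.0% of all genes. Every KO library lay above every WT library for 76 of the 80, against 6.94% of all genes, and the reverse held for 0 of the 80, against 4.67% of all genes.

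The messages of these proteins are short, with a median of 705 bases among the 80 tested against 2812 bases over all genes tested, and shorter genes had somewhat higher folds in these libraries. Genes under 1000 bases that are not members, 1074 of them, had a median log2 fold change of 0.14, with 19 called higher and 8 lower. When the dependence of counts on transcript length and GC content was removed from each library, 3 members stayed past the threshold, Rps2, Rpl12 and Rpsa, where 0.491% of all genes were called higher. The members' median was then 0.38 and that of all genes -0.10. For Rack1 and Fau, which are not members, standard errors were also larger in this fit, 0.19 against 0.13 and 0.21 against 0.13. How far smaller folds or larger errors account for the members' lost calls was not tested. A lost call is not by itself a lost difference. With the trend taken from genes of at least 10 CPM (TMM-normalised reads relative to library size), which are better measured, 27 members were called, where 1.47% of all genes were, and their median was 0.43. All 80 stayed above 0 in both. A trend fitted without the ribosomal protein genes also left 3 called, with a median of 0.39. The part of the length trend in the result was not tested further, and the settings with 10 CPM and without the family were chosen after the data were seen. By other tests on the counts as deposited, DESeq2 called 74 members higher, where 3.29% of all genes were, and limma voom 69, where 2.40% were.

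**Figure D1:**
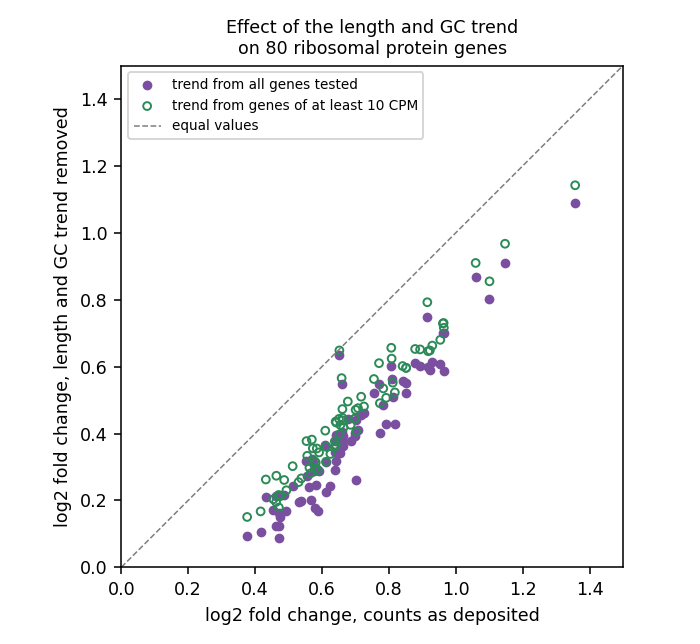
Log2 fold change (KO over WT) of the 80 ribosomal protein genes tested, from the counts as deposited (x axis) and after the dependence on transcript length and GC content was taken out of each library (y axis). Filled points use the trend of all genes tested and open points that of genes with at least 10 CPM; every point lies above 0 and below the dashed line of equal values, with medians of 0.38 and 0.43 on the y axis against 0.66 on the x axis.

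As a share of all counts, the 83 genes took 2.95%, 2.33%, 2.46% and 2.84% in WT replicates 1 to 4 and 4.04%, 4.16%, 4.05% and 4.25% in KO replicates 1 to 4. The KO libraries lay close together and all of them above WT, whose replicates 2 and 3 were low and 1 and 4 high. The WT mean was 2.64% ± 0.297 and the KO mean 4.12% ± 0.103 (SD, n = 4 each). This WT order ran through the family: replicate 2 was the lowest WT library for 39 of the 80 genes and replicate 3 for 38, while replicate 1 was the highest for 52 and replicate 4 for 24. The family therefore moved as a block between libraries of 1 group too, by a median of -0.16 to 0.19 around the WT mean on the log2 scale, against 0.64 to 0.70 in the KO libraries. In each single KO library 77 to 79 of the 80 genes were above all 4 WT libraries. Sftpc, a marker of alveolar type 2 cells, had the same order in WT, with 15320, 2453, 6489 and 11629 CPM in replicates 1 to 4. In KO it measured 2357, 7570, 11203 and 4756 CPM, not in the order of the KO shares. A link between the 2 was not tested. These are bulk libraries, in which more cells rich in ribosomes and more message per cell cannot be told apart.

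**Figure D2:**
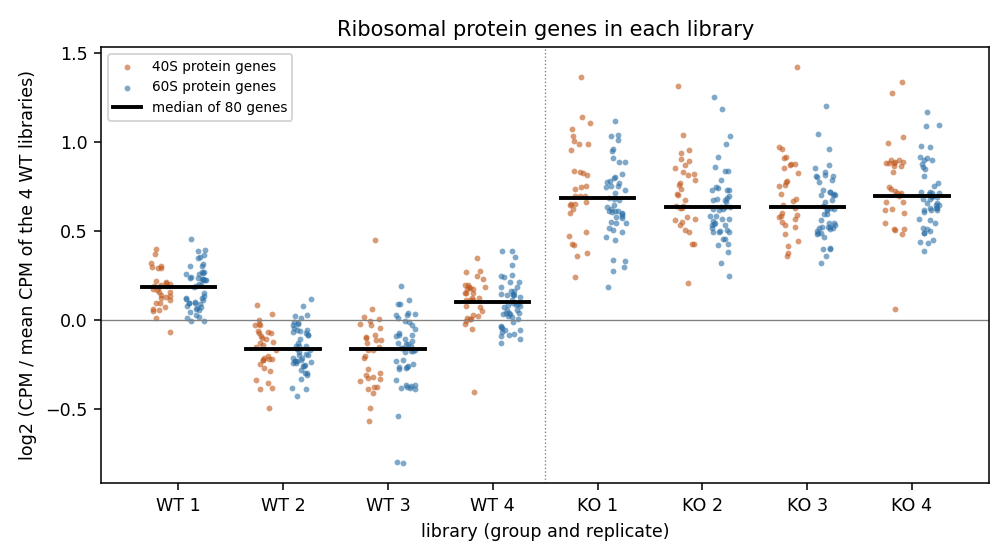
Each point is 1 of the 80 ribosomal protein genes tested, placed by the log2 ratio of its CPM to the mean of the 4 WT libraries, with the 8 libraries along the x axis, the 2 subunits in separate colours and the median as a bar. The WT medians run from -0.16 to 0.19 and the KO medians from 0.64 to 0.70.

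Total counts per library ran from 6407924 (WT replicate 3) to 13981329 (KO replicate 4), and 461 of 12689 genes were called in either direction (3.63%). The deleted gene Uqcrq measured 24.5 to 31.5 CPM in WT and 1.59 to 15.6 CPM in KO, with the lowest value in KO replicate 1 (log2 fold change -1.42, SE 0.53, edgeR adjusted p = 0.179). Endothelial markers, Pecam1, Cdh5, Kdr, Tek, Tie1 and Cldn5, summed to 12598 to 14736 CPM in WT and 10792 to 14122 in KO, and edgeR called 1 of these 6 genes, Tek, lower (log2 fold change -0.69, adjusted p = 0.00762). Limma voom also called Tek alone among them. DESeq2 called Tek and Cdh5 lower, where Cdh5 had a log2 fold change of -0.36 and an adjusted p of 0.13 by edgeR and 0.0165 by DESeq2. The 5 markers of alveolar type 2 cells summed to 3376 to 19899 CPM in WT and 3290 to 14395 in KO, and those of macrophages to 417 to 2004 and 374 to 1480. Nearly all of the macrophage sum was Lyz2, a gene that alveolar type 2 cells also express, at 407 to 1999.7 CPM in WT and 374 to 1465 in KO. The other 4 macrophage markers, Cd68, Csf1r, Adgre1 and Marco, summed to 1.20 to 9.66 CPM in WT and 0 to 15.0 in KO. Fibroblast and pericyte markers summed to 124 to 766 and 155 to 711 CPM, lymphocyte markers to 0.863 to 22.7 and 6.44 to 26.1, red cell markers to 23.0 to 68.0 and 28.5 to 72.3, and platelet markers to 5.98 to 35.2 and 13.2 to 46.2. None of the markers outside endothelium was called by edgeR, DESeq2 or limma voom or had an unadjusted edgeR p under 0.05, Cd3g was at 0 in all libraries, and the part of these cells in the ribosomal protein result was not tested.

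Both subunits rose. Among 40S genes 26 of 32 were called higher with a median log2 fold change of 0.66, and every KO library was above every WT library for 31. Among 60S genes 36 of 48 tested were called, also with a median of 0.66, and 45 were separated in this way. The spread of single genes was 0.20 (SD) in 40S and 0.17 in 60S, and the median standard error of a single gene was 0.14. That error includes movement between libraries that the members share, so it is not the error of a difference between members. Differences between single members were not tested. Within single libraries, with each gene set against its WT mean on the log2 scale, the 40S genes had a median of 0.68 to 0.73 in KO and the 60S genes 0.62 to 0.68. The 60S median minus the 40S median was 0.02, -0.03, 0.01 and -0.04 in WT replicates 1 to 4 and -0.08, -0.08, -0.05 and -0.05 in KO replicates 1 to 4. The KO values were all below the WT values, by a small amount, and this difference was not tested. Summed counts gave a further view, the ratio of 60S to 40S counts within a library. It was 1.38, 1.38, 1.38 and 1.33 in WT replicates 1 to 4 and 1.30, 1.29, 1.31 and 1.30 in KO replicates 1 to 4, so the groups did not overlap and the means were 1.37 ± 0.0271 and 1.30 ± 0.00774 (SD, n = 4 each). Rps2 had the largest fold of the family, so leaving it out was bound to bring the groups closer. Without Rps2 the ratio was 1.36 to 1.42 in WT (mean 1.41) and 1.34 to 1.37 in KO (mean 1.35). The groups then overlapped, only by KO replicate 3 lying above WT replicate 4.

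**Figure D3:**
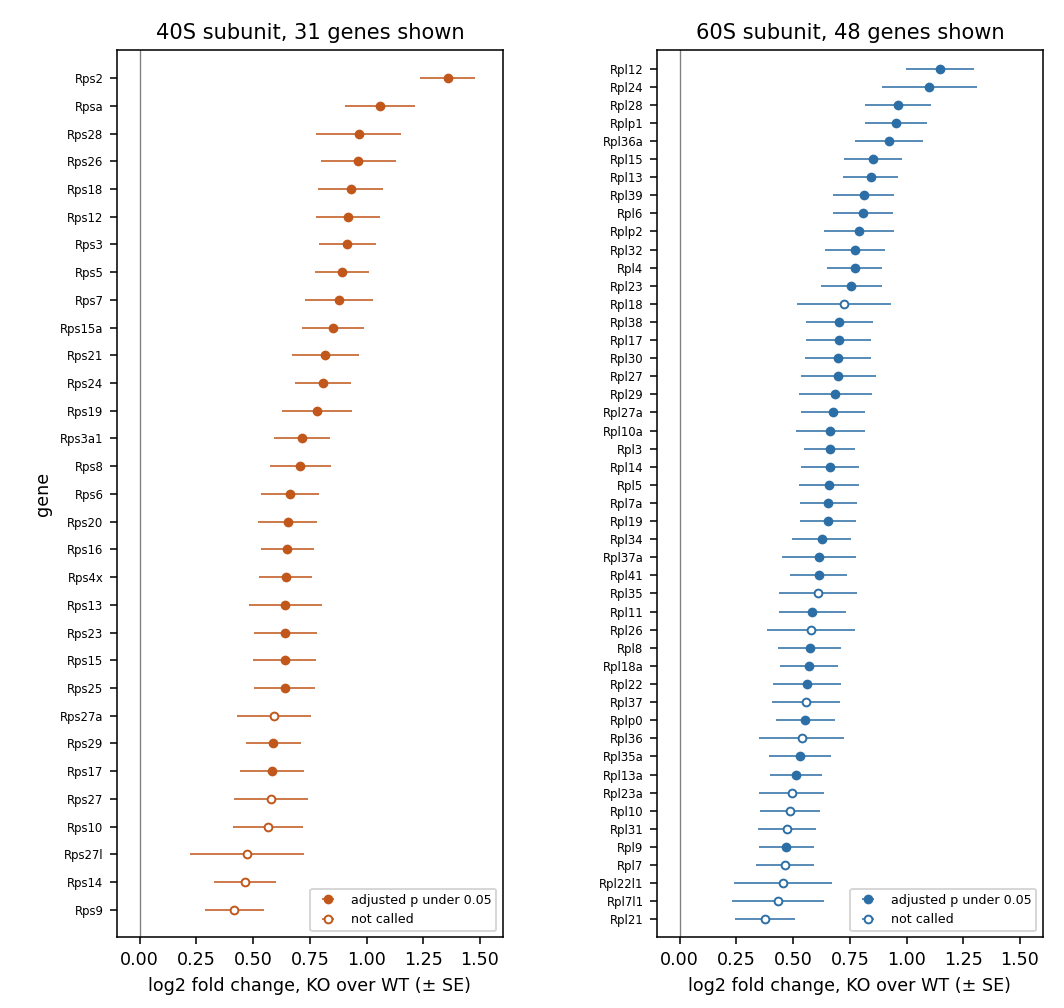
Log2 fold change (KO over WT, x axis) with its standard error, in order of size, for 31 of the 32 tested genes of the 40S subunit and all 48 tested of the 60S subunit. Filled points passed an adjusted p of 0.05 (25 and 36 of the genes shown) and open points did not; all values shown lie above 0, with Rps2 at 1.36 and Rpl12 at 1.15 on top.

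Rps2 sits beside the channel by which mRNA enters the small subunit. The gene (ENSMUSG00000044533, plus strand, chr17:24718116-24721929 in GRCm38) measured 337, 280, 269 and 290 CPM, scaled for library composition, in the WT libraries, replicates 1 to 4 in this order here and below, and 755, 730, 786 and 742 CPM in the KO libraries. The lowest KO library was above the highest WT library by more than the spread within either group. Its log2 fold change was 1.36 (SE 0.12, edgeR adjusted p = 3.16e-05), the largest of the family. Within the family's own counts it took 1.04% to 1.20% in WT and 1.72% to 1.90% in KO. Rps2 was also the only member called under all 25 alternative settings, with log2 fold changes of 1.08 to 1.43. Of its 50-base stretches only 20.97% occur in no other annotated transcript, and it holds 1 snoRNA gene (a small nucleolar RNA, made from an intron).

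Rpl12, at the base of the stalk where translation factors land, is at chr2:32961559-32965345 on the plus strand (ENSMUSG00000038900). It measured 312, 201, 209 and 226 CPM in WT and 514, 539, 546 and 504 CPM in KO. WT replicate 1 was well above the other WT libraries and still below all KO libraries. The log2 fold change was 1.15 (SE 0.15, edgeR adjusted p = 0.00046).

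Rpl24, whose protein forms a bridge to the small subunit, had one of the lowest levels of the family. It measured 54.7, 37.6, 45.3 and 64.5 CPM in WT and 102, 120, 98.2 and 113 CPM in KO, without overlap (log2 fold change 1.10, SE 0.21, edgeR adjusted p = 0.00641). Only 18.3% of its 50-base stretches are unique. Rpsa, a 40S protein also described as a laminin receptor at the cell surface, measured 448, 328, 275 and 405 CPM in WT and 722, 746, 687 and 879 CPM in KO. Its KO values were all above WT, and the log2 fold change was 1.06 (SE 0.16, edgeR adjusted p = 0.00119). Among the other 40S genes high in this order, Rps28 rose from 189 ± 56.2 to 370 ± 34.99 CPM, Rps26, which lines the mRNA exit channel, from 153 ± 34.0 to 298 ± 17.7 CPM, Rps18 from 288 ± 54.4 to 548 ± 20.4 CPM, and Rps12 from 365 ± 61.6 to 690 ± 64.4 CPM (SD, n = 4 each, edgeR adjusted p between 0.001645 and 0.00707). In the 60S subunit Rpl28 rose by a log2 fold change of 0.96, Rpl36a by 0.92 and Rpl15 by 0.85.

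The P stalk is the arm of the large subunit that recruits and activates elongation factors, and all 3 of its genes were called higher. Rplp1 measured 479, 341, 386 and 389 CPM in WT and 816, 667, 821 and 786 CPM in KO, with no overlap (log2 fold change 0.95, SE 0.13, edgeR adjusted p = 0.000906). Rplp2 measured 349, 255, 215 and 264 CPM in WT and 457, 415, 474 and 530 CPM in KO, again with every KO library higher (0.79, SE 0.15, edgeR adjusted p = 0.00749). Rplp0, which anchors pairs of the other two on the ribosome, had a smaller difference, from 842 ± 128 to 1236 ± 103 CPM (SD, n = 4 each; log2 fold change 0.55, SE 0.13, edgeR adjusted p = 0.0245). Leaving out WT replicate 2 or 3, or KO replicate 2, 3 or 4, ended this last call (edgeR adjusted p = 0.0504 to 0.0855). Rpl5 and Rpl11 make up the 5S particle with 5S rRNA. Rpl5 measured 371, 377, 287 and 353 CPM in WT and 604, 493, 565 and 528 CPM in KO, and Rpl11 278, 183, 205 and 205 CPM in WT and 311, 335, 317 and 343 CPM in KO. Both were separated without overlap, with log2 fold changes of 0.66 (SE 0.13, edgeR adjusted p = 0.009) and 0.58 (SE 0.15, edgeR adjusted p = 0.0356). Rpl11 lost its call when replicate 2, 3 or 4 of either group was left out (edgeR adjusted p = 0.0885 to 0.102). Of 8 genes whose proteins ring the exit of the peptide tunnel, where signal recognition particle and chaperones dock, 4 were called higher (Rpl17, Rpl19, Rpl22 and Rpl39), with a median of 0.59.

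The smallest differences lay in Rpl21, Rps9, Rps14, Rpl7 and the paralogues. Rpl21 measured 632, 474, 452 and 479 CPM in WT and 626, 698, 652 and 667 CPM in KO. WT replicate 1 reached the KO range, and Rpl21 was not called (log2 fold change 0.38, SE 0.13, edgeR adjusted p = 0.146). Without WT replicate 1 it passed, with an edgeR adjusted p of 0.0463. Rps9 (717 ± 99.7 and 958 ± 89.9 CPM), Rps14 (571 ± 97.7 and 787 ± 36.6 CPM) and Rpl7 (503 ± 64.3 and 694 ± 44.9 CPM, WT and KO, SD, n = 4 each) were separated between the groups but missed the threshold, with edgeR adjusted p of 0.0975, 0.0762 and 0.0558. Rpl10, a protein added late to the 60S particle, missed narrowly (log2 fold change 0.49, edgeR adjusted p = 0.0531) and passed without WT replicate 1 (0.0279).

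Fold change did not follow level. With counts divided by transcript length, as CPM per kilobase of the representative transcript, the family spanned 72.6 to 1180 in the mean of all libraries. Rplp1 and Rpl32, both 60S, and Rps14 of the 40S were among the highest, and Rpl7l1, Rpl22l1 and Rpl24 were the lowest tested. Rpl32 stood at 871 ± 115 CPM per kilobase in WT and 1488 ± 132 in KO, and Rps14 at 957 ± 164 and 1319 ± 61.3 (SD, n = 4 each). Split by this level into 3 groups, 18 of 26, 20 of 27 and 24 of 27 genes were called, from the lowest group to the highest, with medians of 0.66, 0.66 and 0.64. Across the 80 genes level and log2 fold change had a Pearson r of 0.01 and a Spearman rho of -0.03, and transcript length and fold change an r of 0.08 (a description over genes that share libraries). Levels per length in WT and KO had an r of 0.97 across the genes, so the order of the family was largely kept.

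**Figure D4:**
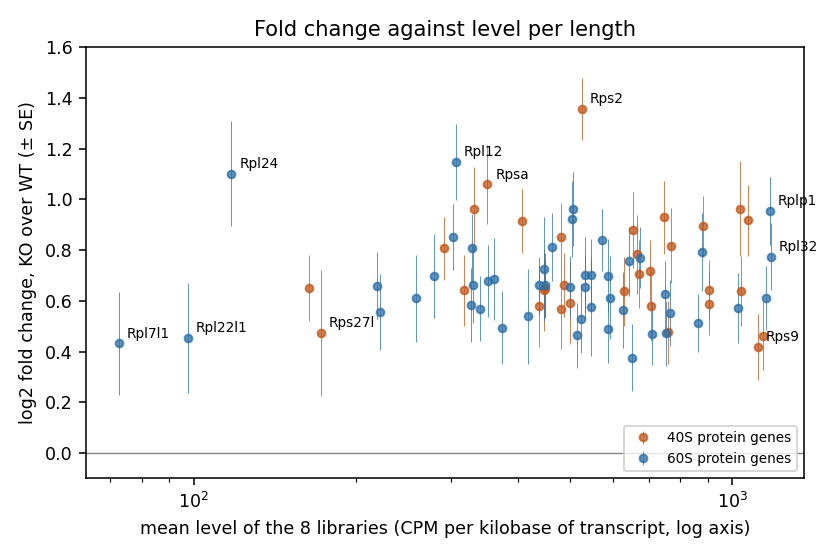
Log2 fold change (KO over WT, ± SE) of the 80 tested genes against their mean level over 8 libraries, in CPM per kilobase of transcript on a log axis, coloured by subunit. The cloud is flat, with r = 0.01 across the genes, from Rpl7l1 and Rpl22l1 at the low end to Rpl32 and Rplp1 at the high end.

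The family was also split by features that the folds do not use. The 30 tested genes that hold 1 or more annotated snoRNA genes (58 in all) had 26 called and a median of 0.70, and the other 50 had 36 called and a median of 0.64. The 30 also had longer transcripts (median 945.5 against 623.5 bases) and smaller standard errors (median 0.132 against 0.145), and the difference was not tested. Those with a C start and a pyrimidine tract, 12 genes, had a median of 0.75, and the 48 other tested genes with a promoter 0.65. With CCGGAAG in the promoter the median was 0.69 over 24 genes, and 0.66 over 36 without. With TATAAA it was 0.87 over 6 genes, and 0.66 over 54 without. For CTTTCC (28 and 32 genes) and GGGCGG (37 and 23 genes) the medians with and without were all 0.66, and for CACGTG they were 0.65 over 5 genes and 0.66 over 55. Ribosomal protein genes have many processed copies in the genome, and reads that fit a copy as well can be lost or moved in counting. Genes with under 50% of their 50-base stretches unique, 52 of them, had 39 called and a median of 0.66, and the 28 others 23 called and 0.65. The 251 annotated pseudogenes whose symbols are those of ribosomal proteins with the ending -ps held 174 to 508 counts per library. This was 0.0675% to 0.121% of the members' own counts. Adding the 249 of them with a member as parent to that parent left 62 genes called. Pseudogenes under other names were not in this set. Rps4l, 1 of these, alone held 4489 counts over all libraries, so the set does not cover all reads of such copies.

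Paralogues were compared within each library, since their ratio does not depend on the scaling between libraries. Of the members, 3 paralogues had 0 counts in all 8 libraries: Rpl3l, known from muscle, Rpl10l, known from testis, and Rpl39l, known from testis and some tumours. A floor of 3 counts in a library corresponds to 0.217 to 0.448 CPM here. Rpl22l1 is the second gene of Rpl22, an RNA-binding protein of the 60S subunit, and in other systems its message rises when Rpl22 is lost. Rpl22 measured 273, 219, 217 and 249 CPM in WT and 442, 299, 331 and 342 CPM in KO, with KO replicate 1 on top. Rpl22l1 measured 47.5, 44.5, 38.0 and 51.6 CPM in WT and 51.6, 64.0, 68.7 and 64.7 CPM in KO, where KO replicate 1 was level with the highest WT library. Rpl22 passed the test by little (log2 fold change 0.56, SE 0.15, edgeR adjusted p = 0.0481) and lost its call when any 1 library except WT replicate 1 and KO replicate 2 was left out (edgeR adjusted p = 0.0868 to 0.125). Rpl22l1 did not pass (0.45, SE 0.22, edgeR adjusted p = 0.338). Rpl22l1 made up 14.8%, 16.9%, 14.9% and 17.2% of the pair's counts in WT replicates 1 to 4 and 10.4%, 17.6%, 17.2% and 15.9% in KO. The KO range enclosed the WT range, and the log2 ratio moved by -0.10 (WT SD 0.13, KO SD 0.41; exact two-sided permutation test, p = 0.857, adjusted over 5 pairs 0.943).

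Rps27 and Rps27l, the latter known as a target of p53, encode nearly the same zinc finger protein of the 40S subunit from separate genes. Their coding sequences from the GENCODE annotation are shown because they bear on whether reads can tell the genes apart. Capitals mark the 61 of 255 bases that differ.
Rps27: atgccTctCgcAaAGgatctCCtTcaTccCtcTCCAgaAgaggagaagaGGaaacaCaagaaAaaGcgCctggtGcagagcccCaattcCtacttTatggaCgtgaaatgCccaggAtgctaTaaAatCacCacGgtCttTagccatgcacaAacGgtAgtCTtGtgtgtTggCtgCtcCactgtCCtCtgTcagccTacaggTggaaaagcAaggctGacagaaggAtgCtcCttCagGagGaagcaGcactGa
Rps27l: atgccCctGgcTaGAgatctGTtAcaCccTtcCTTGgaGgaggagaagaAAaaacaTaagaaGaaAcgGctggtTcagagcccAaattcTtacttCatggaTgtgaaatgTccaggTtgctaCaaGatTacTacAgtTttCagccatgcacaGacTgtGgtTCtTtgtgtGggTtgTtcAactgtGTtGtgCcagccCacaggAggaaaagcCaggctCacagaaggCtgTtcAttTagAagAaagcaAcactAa
The sequences are 76.1% identical and the longest identical run is 11 bases. Rps27l (plus strand, chr9:66946086-66949516) measured 78.7, 56.5, 98.5 and 54.4 CPM in WT and 147, 83.4, 93.4 and 75.4 CPM in KO. The groups overlapped, with KO replicate 1 far above the rest, and it was not called (log2 fold change 0.47, SE 0.25, edgeR adjusted p = 0.411). Rps27 (minus strand, chr3:90212522-90213651) measured 138, 110, 98.4 and 137 CPM in WT and 170, 162, 194 and 196 CPM in KO, separated but short of the threshold (0.58, SE 0.16, edgeR adjusted p = 0.0617). Rps27l made up 28.4% to 50.04% of the pair in WT and 27.7% to 46.4% in KO, and the log2 ratio moved by -0.13 (exact two-sided permutation test, p = 0.657, adjusted 0.943). Only 1.35% of the 50-base stretches of Rps27 are unique. Rps27rt, a retrocopy annotated as protein-coding and singled out after its values were seen, held 16472 counts over all libraries against 14307 for Rps27, so reads of these genes may be shared. Its log2 fold change was 0.31 (edgeR adjusted p = 0.516).

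Rpl7l1, which has a role in the nucleolus, measured 106, 69.8, 61.9 and 86.0 CPM in WT and 97.9, 105, 101 and 133 CPM in KO. WT replicate 1 lay inside the KO range (log2 fold change 0.43, SE 0.20, edgeR adjusted p = 0.325). It made up 11.7% to 15.96% of the pair with Rpl7 in WT and 12.5% to 15.2% in KO, and the log2 ratio moved by -0.02 (exact two-sided permutation test, p = 0.943, adjusted 0.943). The coding sequences of Rpl7 and Rpl7l1 are 53.0% identical, those of Rpl22 and Rpl22l1 66.9%. Per length, Rpl7 stood 5.93 to 8.53 times above Rpl7l1 in WT and Rpl22 5.61 to 6.69 times above Rpl22l1.

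The other pairs involve genes outside the rule. Rpl36al, an autosomal copy of the X-linked Rpl36a (87.9% identical in coding sequence), made up 25.4%, 28.1%, 39.1% and 30.01% of the pair in WT replicates 1 to 4 and 25.8%, 22.4%, 27.4% and 22.9% in KO. WT replicate 3 was high and the groups overlapped at WT replicate 1 (log2 ratio -0.43 in KO minus WT, exact two-sided permutation test, p = 0.0857, adjusted 0.214). Rpl36a had a log2 fold change of 0.92 (SE 0.15, edgeR adjusted p = 0.00239) and Rpl36al 0.51 (SE 0.18, edgeR adjusted p = 0.161). Rps4l, on chr6:148354656-148355598 and annotated as a transcribed processed pseudogene, was set against Rps4x. Rps4l measured 77.3, 53.9, 42.8 and 48.1 CPM in WT and 25.8, 41.4, 41.1 and 53.9 CPM in KO, and Rps4x 688 ± 53.6 and 1074 ± 81.6 CPM (SD, n = 4 each). Its share of the pair was 9.64%, 7.75%, 6.24% and 6.07% in WT and 2.26%, 4.07%, 3.42% and 4.92% in KO, without overlap. The log2 ratio moved by -1.10, with an exact two-sided permutation p of 0.0286, the smallest that 4 against 4 allows, and 0.143 when adjusted over the 5 pairs. A single pair at that smallest p could not come under 0.05 after this adjustment, so the adjusted value cannot decide whether the ratio changed. Rps4l alone was not called (log2 fold change -0.45, SE 0.27, edgeR adjusted p = 0.513), while Rps4x was (0.64, SE 0.12, edgeR adjusted p = 0.00477).

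**Figure D5:**
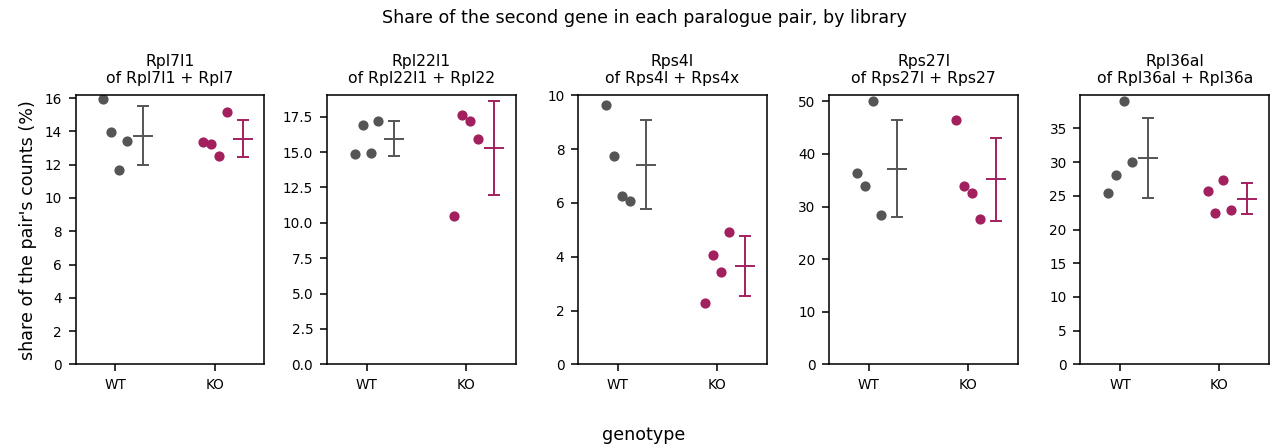
Share of the second gene in the counts of each of 5 paralogue pairs (y axis, percent, starting at 0), by genotype. Points are single libraries, replicates 1 to 4 from left to right, and bars are mean ± SD (n = 4 each); the share of Rps4l is 6.07% to 9.64% in WT and 2.26% to 4.92% in KO, and the other 4 pairs overlap.

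Of the 3 genes kept under other symbols edgeR called 1 higher and 0 lower, with a median log2 fold change of 0.51, and DESeq2 and limma voom each called 2 higher. Of all genes tested edgeR called 2.25% higher and 1.39% lower, the background for the counts in the lists that follow. Rack1, a scaffold on the head of the 40S subunit, measured 766, 558, 579 and 615 CPM in WT and 1085, 1022, 1057 and 1164 CPM in KO, with no overlap (0.78, SE 0.13, edgeR adjusted p = 0.00244). Fau, made as a fusion with a ubiquitin-like part, had a log2 fold change of 0.47 and missed the threshold by edgeR (adjusted p = 0.0558). It passed by DESeq2 (adjusted p = 0.00835) and limma voom (adjusted p = 0.0436). Other genes known to carry a TOP tract, mostly translation factors, had 9 of 14 called higher and 0 lower, with a median of 0.53 and all 14 above 0. Npm1, a nucleolar chaperone of ribosome assembly, measured 238, 227, 188 and 200 CPM in WT and 393, 460, 445 and 499 CPM in KO (1.08, SE 0.14, edgeR adjusted p = 0.00038). Pabpc1, the poly(A) binding protein, rose from 462 ± 51.9 to 928 ± 69.7 CPM, and Eef2, which moves the ribosome along the message, from 2674 ± 334 to 4608 ± 307 CPM (SD, n = 4 each; edgeR adjusted p = 0.000358 and 0.00119). All 3 of these genes were higher in every KO library than in any WT library. With the length and GC trend removed Npm1 and Pabpc1 kept their calls, at log2 fold changes of 0.90 and 0.91. Eef2 and Rack1 lost theirs, at 0.70 (edgeR adjusted p = 0.0798) and 0.56 (edgeR adjusted p = 0.169), and Fau was at 0.08 (edgeR adjusted p = 0.941). Fau passed without WT replicate 1 (edgeR adjusted p = 0.042).

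Of 17 genes of mTORC1 and of the factors that act on TOP messages 1 was called higher by edgeR, where 2.25% of all genes tested were, and 0 lower, where 1.39% were, with a median log2 fold change of 0.07. The called gene was Eif4ebp1, an inhibitor of translation initiation that mTORC1 inactivates and a known target of the stress factor ATF4. It measured 18.4, 26.5, 23.9 and 12.3 CPM in WT and 85.7, 71.5, 91.0 and 54.2 CPM in KO, without overlap (1.90, SE 0.29). Larp1, which binds TOP messages, was at 119 ± 21.5 and 163 ± 27.6 CPM (SD, n = 4 each; edgeR adjusted p = 0.214), and Cnbp at 360 ± 18.1 and 450 ± 31.2 CPM (SD, n = 4 each; edgeR adjusted p = 0.183). Factors that escort new ribosomal proteins or import them into the nucleus had 3 of 12 tested called higher, the importins Ipo5 (0.79), Ipo7 (0.97) and Ipo9 (0.74), and 0 lower, with a median of 0.57. Each of these 3 importin calls was lost without some single library: for Ipo5 this was WT replicate 4 or KO replicate 3, for Ipo9 replicate 1 or 3 of WT or 2 or 4 of KO, and for Ipo7 replicate 1, 2 or 4 of WT or 1 or 3 of KO (edgeR adjusted p = 0.0526 to 0.0958). Non-coding snoRNA host genes, whose spliced RNAs mostly carry a TOP tract, had 2 of 5 called higher with a median of 1.11. Snhg6 measured 10.3, 10.4, 12.6 and 5.10 CPM in WT and 39.0, 35.6, 46.8 and 42.3 CPM in KO (2.09, SE 0.35), a clear separation. Gas5 measured 49.8, 96.7, 50.2 and 46.4 CPM in WT and 178, 107, 133 and 109 CPM in KO (1.11, SE 0.25, edgeR adjusted p = 0.0206). Its WT replicate 2 came close to KO, and leaving out replicate 1, 3 or 4 of WT or 1 or 3 of KO ended the call (edgeR adjusted p = 0.0554 to 0.0761). Zfas1 was not called (edgeR adjusted p = 0.314). With the length and GC trend removed Eif4ebp1 kept its call, at a log2 fold change of 1.71 (edgeR adjusted p = 0.0112). The 3 importins lost theirs although their log2 fold changes were about as large as before, 0.74 for Ipo5, 0.99 for Ipo7 and 0.75 for Ipo9 (edgeR adjusted p = 0.0971, 0.0957 and 0.0686). Snhg6 narrowly missed the threshold at 1.67 (edgeR adjusted p = 0.0506), and Gas5 lost its call at 0.75 (edgeR adjusted p = 0.352). Of 10 genes that act on stalled ribosomes or tag ribosomal proteins for removal, 0 were called in either direction by edgeR, with a median of 0.05 (also 0 at an unadjusted p under 0.05 and by DESeq2 and limma voom), and Nemf, Usp10 and Pelo had the smallest p (edgeR adjusted p = 0.329, 0.524 and 0.503).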

How the data were processed

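Per gene, the deposited table gives raw read counts that the authors made with bcl2fastq, TopHat, HTSeq and edgeR on the build mm10, per the submitters' processing notes, without versions. How reads were assigned (annotation release, filters, strand) is not given in the sources used here, and reads of a gene and of an antisense or overlapping partner may be mixed. All 8 columns matched a label. Symbols, transcripts and snoRNA positions came from GENCODE M21 (GRCm38, the same build). Identifiers with a symbol numbered 42462 of 43430.

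Counts were tested in R 4.3.3 with edgeR 4.0.16 (TMM factors, filterByExpr with minimum count 10 and minimum total 15, robust quasi-likelihood F test, genotype only), adjusted over 12689 genes at 0.05. CPM are TMM-scaled. The edgeR common biological coefficient of variation was 63.5%. Length means the representative coding transcript. Uniqueness counts 50-base stretches found in no other annotated transcript. Paralogue ratios used a pseudocount of 2 counts and an exact test (SciPy 1.17.1). Coding sequences were aligned with Biopython 1.88. Length and GC trends were fitted per library with mgcv 1.9.3. DESeq2 1.42.0 and limma 3.58.1 were alternatives. The plain edgeR, DESeq2 and limma voom fits were also run on simulated counts of independent genes. These had no length trend and no movement shared between genes, so they cannot show how the fits behave with either. The trend-removed fits were not simulated. All pairs of replicates differed beyond sampling noise (chi-square over its degrees of freedom 34.4 to 77.1). Reads carry no molecular identifiers, so the floor covers counting error only.

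The members and lists were chosen with earlier results of these data known. Genes named were the paralogue pairs, the 6 largest and 4 smallest log2 fold changes of each subunit, the P stalk and 5S particle, the highest level per length in each subunit, all genes under other symbols, up to 3 of smallest p from each other list, and Uqcrq, of which some are not reported here. Other genes named as examples of a count or a sequence were chosen after their values were seen. Snhg1 and Snhg8 matched no gene of the table and were not analysed here.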

Additional observations from a re-analysis of the deposited data

Results flagged for a closer look

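In 114 groups of 4 values checked, 5 had a library far from the other 3 of its group by Dixon's test, where chance gives about 1 in 20. Gas5 in WT had a highest value of 96.7 CPM (replicate 2), and Rpl21 in WT one of 632 CPM (replicate 1). In KO, Rpl36a had a highest value of 344 CPM (replicate 2) and Rps14 had a lowest value of 733 CPM (replicate 1). The ratio of 60S to 40S counts in WT had a lowest value of 1.33 (replicate 4).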

How the results depend on the processing

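The number of ribosomal protein genes called higher was 62. It was 3 with the length and GC trend removed, 3 with that trend fitted without these genes, 27 with the trend from genes of at least 10 CPM, 38 without WT replicate 3 and KO replicate 1, and 37 at an adjusted p under 0.01. Of all genes tested, 285 of 12689 were called higher in the main fit. The 3 trend settings called 62, 62 and 186 of 12629 higher, and leaving out both libraries 209 of 13131. The members' median log2 fold change was 0.38, 0.39 and 0.43 under the 3 trend settings and 0.61 without both libraries. Leaving out 1 library at a time gave 46 (WT replicate 3) to 65 (WT replicate 1) members, medians of 0.61 to 0.72, and 45 members called in all 8 fits. Over all genes, 221 of 13292 were called higher without WT replicate 3 and 254 of 13113 without WT replicate 1. The 8 fits ranged from 173 of 13018 without KO replicate 3 to 259 of 13258 without KO replicate 1. How many of all genes were called in all 8 fits, or at an adjusted p under 0.01, was not counted. Other scalings, filters and tests gave 57 to 74 members, where 263 to 450 of all genes were called higher, out of 10978 to 18490 tested. Of the tunnel rim genes DESeq2 called 7 of 8, against 4 with edgeR. Over all genes 113 to 788 were called, against 461. The median of 60S minus that of 40S genes, near 0, was -0.0444 with the trend removed, -0.0440 with the trend fitted without these genes, -0.0468 with the trend from genes of at least 10 CPM, -0.0364 without both libraries and -0.0630 to -0.0139 when 1 library was left out. No named gene changed direction in any of the 25 alternatives. The share of counts differed by 1.38 to 1.58 points when 1 library was left out. The causes were not tested.

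With the replicate number as a block 53 ribosomal protein genes were called higher, where 215 of all 12689 genes tested were. With replicate block and trend removal together 1 was, where 46 of 12629 genes were. The members' median was then 0.37 and the 60S minus 40S difference -0.0438. The numbers did not pair the samples: deviations of libraries with the same number had correlations of -0.10, -0.12, 0.01 and -0.01, and the block was used for no result.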
